A study of Mus musculus with 2 samples.

Results

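The genes described here are 36 factors that build ribosomes in the nucleolus, together with subunits of RNA polymerase I (Pol I), measured in single CD8+ T cells kept with much or little glucose. They were named as a list of gene symbols and matched to the gene table of the files, where all 36 were found among 27998 genes. Each was read as raw counts of unique molecular identifiers (UMIs), which count captured transcripts, in cells with at least 500 genes detected and under 10% of their UMIs on mitochondrially encoded genes.

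Pol I transcribes the ribosomal DNA repeats into 1 long precursor RNA. Small nucleolar RNA-protein complexes (snoRNPs) then modify that precursor, and large sets of assembly factors cut it and fold it with ribosomal proteins into the small and the large ribosomal subunit. Resting T cells hold few ribosomes, and activation through the antigen receptor enlarges the nucleolus and raises the expression of these genes, many of which are known targets of the transcription factor MYC.

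The cells were CD8+ T cells from OT-I mice 8 to 12 weeks old, a strain with a transgenic T cell receptor for the ovalbumin peptide SIINFEKL. Spleen and lymph node cells of both groups were activated with that peptide for 48 h in medium with interleukin-2 at 100 U/ml, and interleukin-2 was present in the later medium too. They were then held for 20 h either in 11 mM glucose, here called control, or in 1 mM glucose, called TGR for transient glucose restriction. The sample descriptions name 3 days of growth before the exposure instead, and neither source says whether glucose was given back before capture. Each condition had 1 library, and the labels do not say how many mice it came from, so every value below describes 2 libraries, no test of the conditions was possible and no p-value is given.

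After filtering, 3127 control cells and 2546 TGR cells remained, with 14730128 and 19696068 UMIs and medians of 4030 and 6266 UMIs per cell. The median cell gave 39.7% of its UMIs to ribosomal protein genes in the control and 49.4% in the TGR library. All 7 CD8 T cell markers found in the files were present, with summed levels of 3958 and 2806 CPM (UMIs per 1000000 UMIs of the library), against 19.1 and 12.7 CPM for B cell markers, nearly all of it Cd79b, and under 5 CPM for the markers of CD4 T, myeloid, natural killer, dendritic, erythroid and stromal cells. The libraries shared 11 cell barcodes, 9 of them among the kept cells.

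Promoter sequence was available for 31 of the 36 genes in RefSeq's mouse table (GRCm38.p6), as windows from 250 bases before to 50 bases after each transcription start. The hexamer CACGTG, the palindromic E-box that MYC binds with its partner MAX, occurred in 6 of these 31 genes (19.4%) and in 8.09% of 27025 genes with a window. The stretches of 30 bases that hold it are shown because they are the sites at which a MYC-type motif is spelled out next to the start of these genes. Each is written 5′ to 3′ along the gene's own strand with the motif in capitals.
Nop2: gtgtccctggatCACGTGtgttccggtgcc
Utp20: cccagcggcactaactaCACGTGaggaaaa
Pes1: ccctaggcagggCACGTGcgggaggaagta
Mybbp1a: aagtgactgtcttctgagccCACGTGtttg
Tsr1: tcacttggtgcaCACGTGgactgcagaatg
Wdr43: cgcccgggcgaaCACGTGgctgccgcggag

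The Nop2 stretch is chr6:125131811-125131840 on the plus strand, with the motif beginning 60 bases before the start. The other five motifs begin inside the first 50 transcribed bases: Utp20 at chr10:88826765-88826794 on the minus strand (base 38), Pes1 at chr11:3963965-3963994 (base 3), Mybbp1a at chr11:72441347-72441376 (base 41), Tsr1 at chr11:74898092-74898121 (base 25) and Wdr43 at chr17:71616220-71616249 (base 18), all on the plus strand apart from Utp20. Searched on both strands, the ETS-type heptamer CCGGAAG was found in 10 of the 31 genes (32.3%), against 9.93% of all genes, and the Nop2 and Tsr1 windows held both it and the E-box. The CCAAT box was found in 9 (29.0%, against 41.1%) and TATAAA in 2 (6.45%, against 15.7%). A match is a run of letters in this window and says nothing of binding.

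Levels were compared first over all kept cells. Of the 36 genes, 34 were lower in the TGR library than in the control library, a count that drops to 32 when ribosomal protein and mitochondrial genes are left out of the totals. The median log2 ratio of TGR over control was -0.72, which is 1.65-fold lower. A gene was called lower or higher when the libraries differed at least 1.5-fold and the exact 95% counting interval of the ratio excluded 1, an interval that covers counting error only. By this rule 23 of the 36 were called lower, 0 higher and 13 neither. Among 8062 genes with a mean of at least 5 CPM over both libraries, a filter that all 36 pass, 19.3% were called lower and 10.2% higher. Their median log2 ratio was -0.11, and 58.4% of them were below 0, the share to set beside the 34 of 36. At a 2-fold limit 12 of the 36 were called lower, against 6.85% of those 8062 genes.

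The scale of the ratio depends on what the UMIs are divided by. With ribosomal protein and mitochondrial genes taken out of the totals, every log2 ratio moves up by the same amount: the median of the 6667 genes reaching 10 CPM in 1 library or both, of which 21.8% were called lower and 9.33% higher, moves from -0.16 to 0.10, and the higher calls go from 29.9% to 61.9% of all their calls. On that scale, called the other scale from here on, the 36 genes had a median of -0.46, 14 of them were called lower (against 11.8% of the 6667) and 0 higher, and Wdr12 and Wdr43 joined Polr1c and Npm1 above 0. How far the larger ribosomal protein share of the TGR library accounts for the lower levels was not tested.

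**Figure D1:**
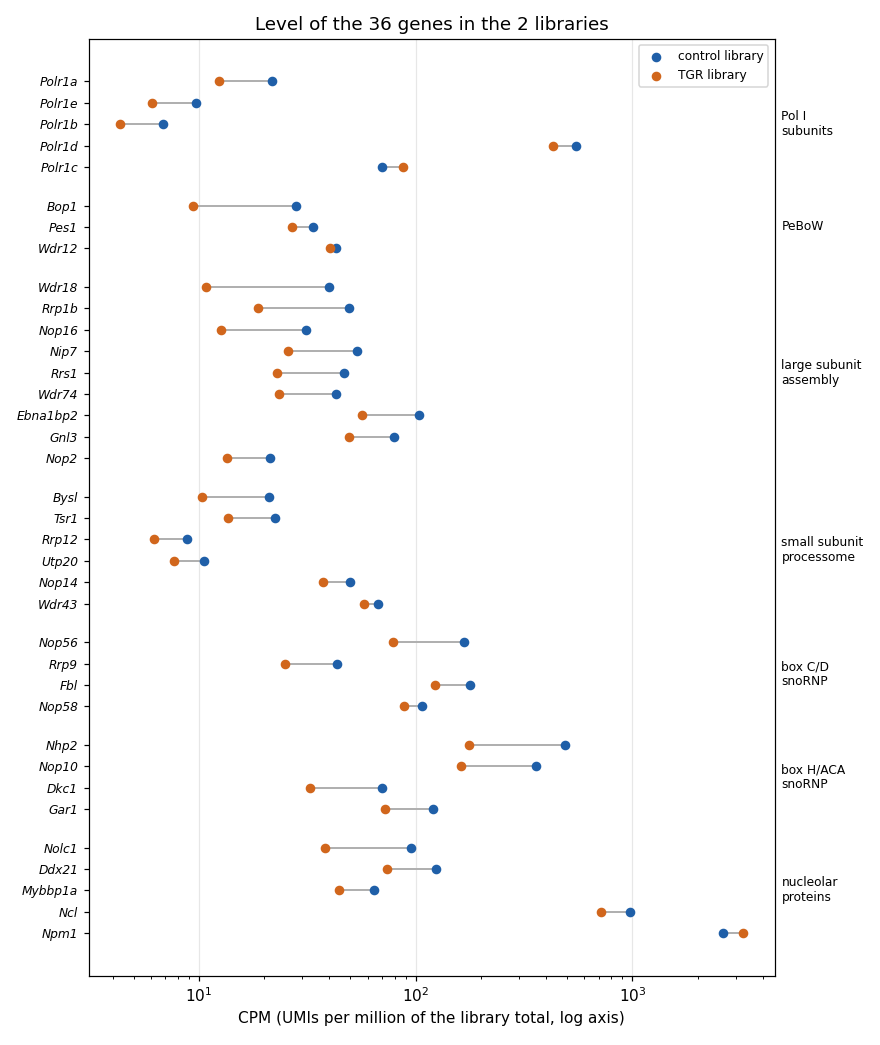
Level of each of the 36 genes in the control library (blue) and the TGR library (orange), in CPM on a log axis, grouped by role; each point is 1 library, so there is no error bar. The TGR point lies to the left of the control point for 34 genes and to the right for Polr1c and Npm1. Of all genes tested, 58.4% were lower in the TGR library. With ribosomal protein and mitochondrial genes out of the totals Wdr12 and Wdr43 also change sides.

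Pol I itself was represented by 5 subunits. Polr1a, the largest catalytic subunit (chr6:71909053-71984935), had 320 UMIs in the control and 244 in the TGR library, or 21.7 and 12.4 CPM, a log2 ratio of -0.81. Polr1b, the second catalytic subunit, went from 6.79 to 4.32 CPM (-0.65), and Polr1e, which belongs to a dimer found only in Pol I, from 9.71 to 6.09 CPM (-0.67). All 3 were called lower, although Polr1b and Polr1e had at most 143 UMIs in a library.

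The remaining subunits, Polr1c and Polr1d, form a dimer that Pol I shares with Pol III. Polr1d was the most counted subunit, with 548 CPM in the control and 430 in the TGR library, a log2 ratio of -0.35 that did not reach the limit. Polr1c stood at 69.8 CPM in the control and 87.4 CPM in the TGR library, 1.25-fold higher (interval 1.16 to 1.35). With ribosomal protein and mitochondrial genes out of the totals none of the 5 was called lower: Polr1a stood at -0.55, Polr1b at -0.39 and Polr1e at -0.41 on the log2 scale.

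The PeBoW complex, made of Pes1, Bop1 and Wdr12, is needed to mature the rRNAs of the large subunit. Its members did not move alike. Bop1 had 27.9 CPM in the control and 9.34 in the TGR library, 2.98-fold lower (interval 2.5 to 3.57), whereas Wdr12 had 43.0 and 40.2 CPM, an interval of the ratio from 0.842 to 1.04, and a log2 ratio that goes from -0.10 to 0.16 on the other scale. Pes1, with 33.7 and 26.8 CPM, lay between them and was not called.

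All 9 other factors of large subunit assembly were called lower, with log2 ratios from -1.89 to -0.66 and a median of -1.02; on the scale without ribosomal protein and mitochondrial genes Nop2 (-0.40) and Gnl3 (-0.43) were no longer called. Wdr18 (chr10:79960152-79970203), part of the complex that acts on the maturing large subunit with Pelp1 and Tex10, had the lowest ratio of the 36 genes: 587 UMIs against 212, or 39.9 and 10.8 CPM, 3.70-fold lower (interval 3.16 to 4.35). Rrp1b followed with 49.1 and 18.6 CPM (-1.40) and Nop16 with 31.1 and 12.6 CPM (-1.30). Nip7, Rrs1, Wdr74 and the nucleolar GTPase Gnl3, also called nucleostemin, had ratios from -1.05 to -0.69.

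Ebna1bp2, an early pre-large-subunit factor and the most counted gene of this group, had 103 CPM in the control and 56.7 in the TGR library, 1.82-fold lower. Nop2, the methyltransferase of the large rRNA whose E-box lies upstream of its start, had the smallest difference of the group, at 21.2 and 13.4 CPM (-0.66). The summed level of the 9 genes was 467 CPM in the control and 234 CPM in the TGR library.

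The 6 genes of the small subunit processome and of later small subunit assembly were all lower in the TGR library, although Wdr43 was not on the other scale, and 2 of them were called: Bysl, at 20.98 and 10.3 CPM (-1.02), and Tsr1, at 22.3 and 13.7 CPM (-0.71, and -0.45 and not called on the other scale). Bysl and Tsr1 act late in the making of the small subunit. Wdr43, one of the factors that couple Pol I transcription to processing, was the most counted and the least different, at 66.9 and 57.5 CPM (-0.22, or 0.04 without ribosomal protein and mitochondrial genes in the totals). Nop14, Utp20 and the export factor Rrp12 had ratios between -0.50 and -0.41.

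Box C/D snoRNPs add methyl groups to ribose on the precursor. Nop56, a core protein of these particles, was called lower with 167 CPM in the control and 78.8 in the TGR library (-1.08), while its partner and relative Nop58 had 107 and 88.5 CPM (-0.27). The intervals of these 2 ratios, 0.442 to 0.503 and 0.775 to 0.889, do not overlap. The methyltransferase Fbl, at 179 and 123 CPM (-0.54), was just short of the limit, and Rrp9, the protein specific to the U3 particle, was called lower at 43.2 and 24.9 CPM (-0.79), a call that the other scale ends (-0.54).

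Box H/ACA snoRNPs convert uridine to pseudouridine, and the same 4 proteins bind telomerase RNA. All 4 were called lower, Gar1 not on the other scale (-0.47), and their median of -1.12 was the lowest of the 7 role groups. Nhp2 (chr11:51619735-51623714) had 7204 UMIs in the control and 3480 in the TGR library, 489 and 177 CPM, a 2.77-fold difference (interval 2.66 to 2.88). Nop10 had 359 and 162 CPM (-1.15), the pseudouridine synthase Dkc1 69.6 and 32.5 CPM (-1.10) and Gar1 120 and 72.1 CPM (-0.73).

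Of 5 abundant or regulatory nucleolar proteins, 2 were called lower. Nolc1, a chaperone of snoRNPs, had 94.7 and 38.2 CPM (-1.31), and the RNA helicase Ddx21 124 and 73.9 CPM (-0.74, and -0.48 and not called on the other scale). Mybbp1a, at 64.3 and 44.1 CPM (-0.54), and nucleolin (Ncl), at 979 and 717 CPM (-0.45), were lower without reaching the limit.

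Nucleophosmin (Npm1, chr11:33152287-33163206), a chaperone of the outer nucleolar compartment, went the other way. It had 38813 UMIs, or 2635 CPM, in the control library and 64142 UMIs, or 3257 CPM, in the TGR library, a ratio of 1.24 (interval 1.22 to 1.25). Npm1 and Ncl together supplied 52.9% of the UMIs of the 36 genes in the control and 67.7% in the TGR library, so a sum over the set follows them. The sum of all 36 was 6836 CPM in the control and 5872 CPM in the TGR library, a ratio of 0.859 that turns to 1.03 on the other scale, and without those 2 genes it was 3222 and 1898 CPM, 1.70-fold lower. The ratio for the 34 genes was 0.705 on the other scale.

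Several of these genes overlap exons of a gene on the opposite strand, and whether counting used strand is not given in the sources used here. Among the members with ratios below -1, Rrp1b overlaps Hsf2bp (0 and 5 UMIs in the control and TGR library), Bop1 overlaps Mroh1 (69 and 152), Nop56 overlaps Idh3b (1167 and 2192), Bysl overlaps Ccnd3 (4283 and 3927), Dkc1 overlaps Mpp1 (268 and 327) and Nhp2 overlaps Rmnd5b (410 and 454). Gnl3 overlaps Pbrm1, Wdr12 overlaps Carf, Tsr1 overlaps Srr and Rrp9 overlaps Parp3. Values of these members are uncertain to the extent that reads crossed over. Npm1 has processed pseudogenes in the mouse genome, and how reads matching both were assigned is not stated either.

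The ratios were also set beside the E-box. The 6 genes with CACGTG in the window shown above had a median log2 ratio of -0.50, from -0.71 for Tsr1 to -0.22 for Wdr43. The 25 genes whose window lacked it had a median of -0.81, with Wdr18 lowest and Polr1c highest. Of the 36 genes 7 also carry small nucleolar RNAs inside their introns in the GENCODE M21 annotation (Dkc1, Gnl3, Ncl, Nop56, Nop58, Tsr1 and Wdr43), and these 7 include both the called Nop56 and the uncalled Nop58.

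Other genes of the same pathway, from lists drawn up by role with earlier results of these data known, were mostly below 0 as well. In 5 lists of further Pol I factors, small and large subunit factors, exosome subunits and snoRNP assembly factors, 116 genes passed the mean of 5 CPM. Of these, 51 were called lower (44.0%, against 19.3% of all genes tested) and 3 higher, with a median log2 ratio of -0.51. Values of these lists and of the polymerase lists below are given with all UMIs in the totals only. Every log2 ratio is higher on the other scale, and calls of the lists on that scale are not given.

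The RNA exosome, which trims the precursor, had the lowest median of these lists, at -0.95. Of its 13 subunits and cofactors 11 were called lower, against 19.3% of all genes tested. Exosc7 had 52.1 CPM in the control and 21.5 in the TGR library (-1.28), the nuclease Dis3 17.9 and 8.12 CPM (-1.13), and the cofactor C1d 83.5 and 39.7 CPM (-1.07). Exosc10, at 24.8 and 24.4 CPM (-0.02), and Skiv2l2, at 18.6 and 14.7 CPM (-0.34), were not called. Exosc8 went from 165 to 85.4 CPM (-0.95).

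Among 43 other large subunit genes 19 were called lower and 2 higher, against 19.3% and 10.2% of all genes tested. Eif6, which keeps the large subunit from joining too early, had 160 and 65.9 CPM (-1.28), and Brix1 44.1 and 19.0 CPM (-1.22). The genes called higher were Nsa2, at 243 CPM in the control and 408 in the TGR library (0.75), and Gltscr2, at 283 and 465 CPM (0.72). Among 42 other small subunit genes 15 were called lower and 0 higher, against the same shares, with Pno1 at 30.3 and 15.03 CPM (-1.01) and Noc4l at 21.3 and 10.9 CPM (-0.97). The most counted of the small subunit genes, Emg1 (302 and 229 CPM) and Imp3 (137 and 115 CPM), were not called.

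Of 10 other Pol I factors, 2 were called lower and 1 higher, near the shares of all genes tested (19.3% and 10.2%). Those called lower were Cd3eap, the dimer partner of Polr1e, at 33.5 and 20.9 CPM (-0.68), and the subunit Twistnb at 69.7 and 44.5 CPM (-0.65). Taf1d, a subunit of the promoter factor SL1, was called higher, at 73.7 and 115 CPM (0.64), and Tcof1, known as treacle, was not called at 107 and 78.1 CPM. Of 8 snoRNP assembly genes 4 were called lower, against 19.3% of all genes tested. Among them were Nhp2l1, the box C/D protein that binds U4 and U3 RNA, at 261 and 139 CPM (-0.90), and the helicase Ruvbl1 at 34.3 and 18.02 CPM (-0.93). Pih1d1 of the same machinery was not called, at 61.0 and 45.3 CPM.

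The polymerases that do not transcribe the ribosomal repeats were read alongside. Of 7 subunits particular to Pol II, 5 were called lower, against 19.3% of all genes tested, with a median of -0.79. Polr2j had 244 and 114 CPM (-1.10), Polr2d 37.3 and 19.9 CPM (-0.90) and Polr2c 113 and 64.8 CPM (-0.80). Of 10 subunits particular to Pol III, 3 were called lower, against 19.3% of all genes tested, with a median of -0.26. Those called included Polr3k at 132 and 69.2 CPM (-0.93), while Polr3c had 40.6 and 43.4 CPM.

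The comparison was repeated by cell cycle state. Each cell was thinned at random to 1500 UMIs, so that 91 control cells with fewer UMIs were dropped and no TGR cell was, and was then called G1, S or G2/M from 42 S and 54 G2/M genes, none of them among the 36. In the control library 168 cells were called G1, 222 S and 2646 G2/M (87.2%), and in the TGR library 1282, 173 and 1091 (42.9% G2/M). The classes were not equal between libraries: cells called G1 held 3698 CPM of G2/M genes in the control and 1751 CPM in the TGR library, and cells called G2/M held 8858 and 5565 CPM. The control values for G1 rest on 168 cells and 583050 UMIs, so their counting intervals are wide.

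Within each class most of the 36 genes were lower in the TGR library, and the difference was smaller in cells called G1. The median log2 ratio was -0.49 in G1, with 15 genes called lower and 0 higher (13.2% and 4.54% of all genes tested there). It was -0.64 in S, with 18 called lower (13% of all genes tested) and Polr1c called higher (5.94%), at 56.6 CPM in the control and 87.5 in the TGR library. In G2/M it was -1.15, with 27 called lower and 0 higher (19.5% and 11.9% of all genes tested). For 34 of the 36 genes the ratio was lower in the pooled cells called S or G2/M (median -1.01, 27 called lower, against 18.7%) than in cells called G1, a difference that was not tested; the exceptions were Nop14 and Pes1.

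**Figure D2:**
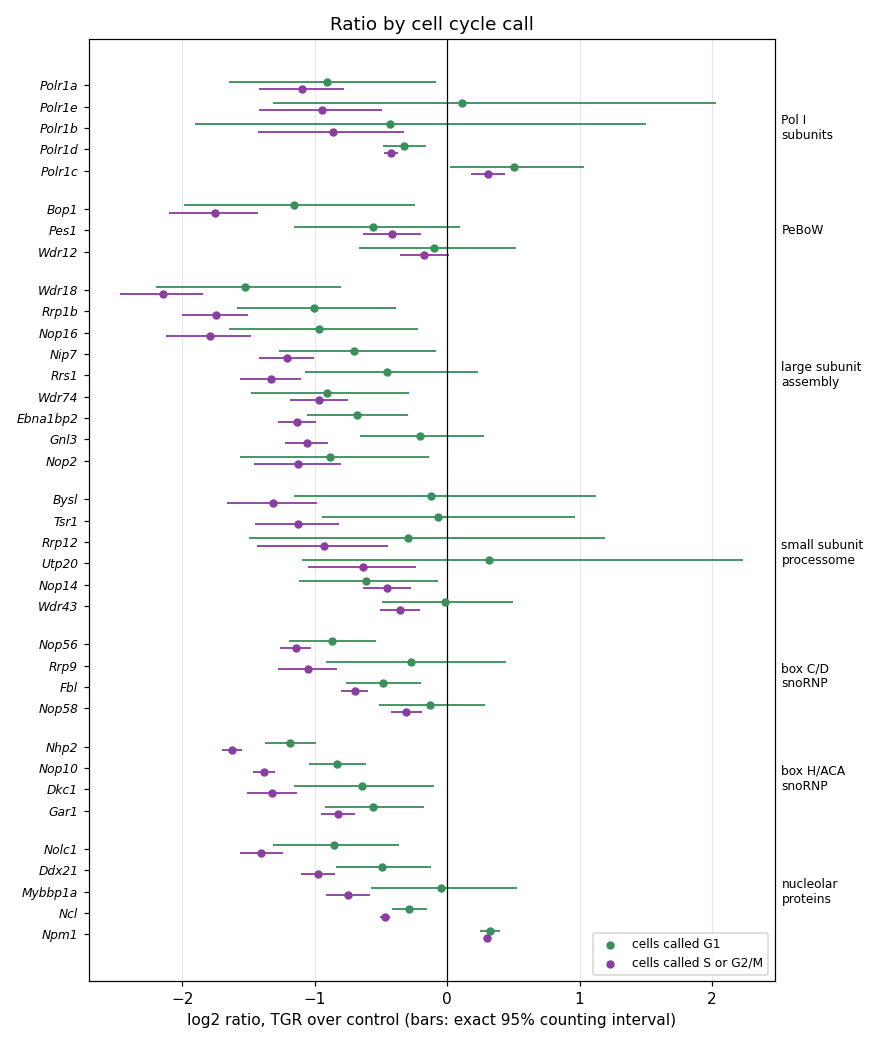
Log2 ratio of TGR over control for each gene in cells called G1 (green) and in cells called S or G2/M (purple), with the exact 95% counting interval as bars, which cover counting error only. The purple point lies to the left of the green one for 34 genes, and the green bars are wide because 168 control cells were called G1.

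The H/ACA and large subunit genes were lower in both states. Nhp2 stood at 455 CPM in the control and 200 CPM in the TGR library in cells called G1, and at 491 and 159 CPM in cells called S or G2/M, so the log2 ratio went from -1.18 to -1.63. Wdr18 had 37.7 and 13.05 CPM in G1 (-1.52) and 40.1 and 9.03 CPM in S or G2/M (-2.15). In G1, 7 of the 9 large subunit genes and 3 of the 4 H/ACA genes were called lower, and in S or G2/M all 9 and all 4.

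Other genes differed mainly outside G1. Gnl3 had 73.8 CPM in the control and 63.9 in the TGR library in cells called G1, with an interval of the ratio from 0.635 to 1.21, and 80.1 and 38.4 CPM in cells called S or G2/M (-1.06). Tsr1 had 18.9 and 17.98 CPM in G1 and 22.7 and 10.4 CPM in S or G2/M, and Mybbp1a 53.2 and 51.5 CPM in G1 and 64.8 and 38.5 CPM in S or G2/M. The G1 ratio of Tsr1 rests on 11 control UMIs. Of the 6 small subunit genes 1, Nop14, was called lower in G1, and it was not called in S or G2/M. There the 4 called were Utp20, Rrp12, Bysl and Tsr1. The G1 ratios of Utp20, Rrp12 and Bysl rest on 4, 6 and 8 control UMIs, so their intervals in G1 are wide.

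Npm1 and Polr1c kept their direction in each state. Npm1 was at 2616 CPM in the control and 3271 CPM in the TGR library in G1, and at 2638 and 3246 CPM in S or G2/M. Polr1c was at 61.7 and 87.7 CPM in G1 and at 70.5 and 87.2 CPM in S or G2/M. Neither was called in those classes, since both ratios lay under 1.5.

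A second reading was taken inside each library, between cells called G2/M and cells called G1, so that the glucose condition was the same on both sides. In the control library the median log2 ratio of G2/M over G1 was 0.05, with 23 genes above 0, 0 called higher and 1, Nop2, called lower (4.89% of all genes tested were called higher and 2.26% lower). In the TGR library the median was -0.47, 0 of the 36 genes were above 0, and 14 were called lower, against 2.44% of all genes tested. The median over all genes tested was 0.10 in the control and 0.05 in the TGR library. Of those genes 41.2% were below 0 in the control and 43.3% in the TGR library. The control count of the 36 genes, 13 below 0, was near that share. The difference between the libraries was not tested.

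Gnl3 was at 73.8 CPM in G1 and 78.4 CPM in G2/M of the control library, and at 63.9 and 35.2 CPM in the TGR library. Rrs1 was at 39.4 and 46.0 CPM in the control and at 28.8 and 16.3 CPM in the TGR library, and Rrp1b at 48.0 and 48.9 CPM and at 23.9 and 12.9 CPM. In these genes the control classes overlapped within counting error while the TGR classes did not. Nop2, at 34.3 and 20.6 CPM in the control and 18.6 and 8.40 CPM in the TGR library, was lower in G2/M in both. Its control ratio rests on 20 UMIs in G1, and the interval, 0.381 to 0.9985, barely excludes 1. Npm1, with 3271 CPM in G1 and 3270 in G2/M of the TGR library, Ncl with 724 and 713 CPM and Polr1c with 87.7 and 87.1 CPM did not differ beyond their counting intervals.

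**Figure D3:**
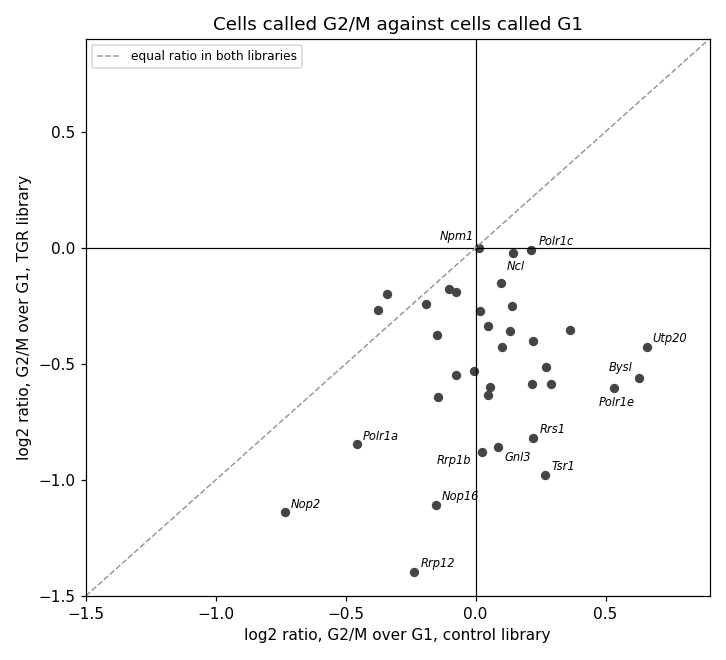
Log2 ratio of cells called G2/M over cells called G1 for each of the 36 genes, in the control library (horizontal) and in the TGR library (vertical); the dashed line marks equal ratios. All 36 points lie below 0 on the vertical axis, that of Npm1 by less than its own width, while on the horizontal axis 23 lie above 0. Of all genes tested, 43.3% were below 0 in the TGR library and 41.2% in the control library.

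Cells called S were set against cells called G1 in the same way. The median log2 ratio of S over G1 was 0.25 in the control and 0.02 in the TGR library. Nolc1 was called higher in S in both libraries, at 73.8 CPM in G1 and 111 CPM in S of the control and at 40.8 and 69.8 CPM in the TGR library and it was the only 1 of the 36 called higher in the control (3.98% of all genes tested). In the TGR library 3 were called higher in S (8.58% of all genes tested), the others being Nop56, at 82.5 and 126 CPM, and Rrp12, at 8.34 and 15.4 CPM. Rrp12 rests on 20 UMIs in the TGR cells called S. Neither count was above its share of all genes tested, so no trait of the 36 genes is read from them. The TGR median of S over G1 changes sign with the scale or the thinning depth. The control median of G2/M over G1 changes sign with the scale.

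The libraries also differed in UMIs per cell, so ratios were taken within bands of depth. In cells with under 4000 UMIs, 1539 control and 396 TGR cells, the median log2 ratio was -0.30, and 7 genes were called lower and 1 higher (16.6% and 8.72% of all genes tested). It was -0.64 with 20 called lower (21.7%) in cells with 4000 to under 8000 UMIs, and -1.02 with 26 called lower (21.4%) in cells with 8000 or more, of which there were 393 control and 829 TGR cells. The 7 genes called lower in the shallowest band, a count near the share of all genes tested, were Wdr18, Nip7, Nop16, Rrp1b, Nop56, Nhp2 and Nop10. In that band 27 of the 36 genes were below 0, against 56.7% of all genes tested. On the other scale the 34 genes without Npm1 and Ncl took a median of 0.496% of a control cell's UMIs there and 0.425% of a TGR cell's.

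Nhp2 went from 418 CPM in the control to 176 CPM in the TGR library in the shallowest band, from 503 to 198 CPM in the middle one and from 542 to 162 CPM in the deepest. Wdr18 went from 30.1 to 13.6, from 42.9 to 12.0 and from 45.2 to 9.55 CPM. For both genes the control level was highest in the deepest cells and the TGR level was lowest there. Utp20 was the gene called higher in the shallowest band, at 9.23 and 16.7 CPM from 39 and 22 UMIs, while it was called lower in both deeper bands. Over all 36 genes the median log2 ratio of the deepest over the shallowest band was 0.11 in the control, with 1 called higher (4.27%), and -0.52 in the TGR library, with 13 called lower (5.57%).

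State and depth were then crossed. In cells called G2/M the median log2 ratio of TGR over control was -0.38 under 4000 UMIs, -1.10 at 4000 to under 8000 UMIs and -1.16 at 8000 or more. In cells called G1 it was -0.12 and -0.47 in the lower bands, and the deepest band held 3 control cells. Within the TGR library the G2/M over G1 median was -0.18 under 4000 UMIs, with 24 genes below 0 and 1 called lower (1.89%), -0.52 at 4000 to under 8000 UMIs, with 36 below 0 and 16 called lower (3.6%), and -0.23 at 8000 or more, with 29 below 0 and 6 called lower (1.62%). Of all genes tested, 48.8%, 43.2% and 42.7% were below 0 in these bands, from shallow to deep. The median of the 36 genes was thus below 0 in all 3 bands, and it differed in size between them.

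The same comparison can be made per cell. The 34 genes without Npm1 and Ncl took a median of 0.305% of a control cell's UMIs (quartiles 0.224% and 0.396%) and 0.182% of a TGR cell's (0.134% and 0.249%). The medians were 0.280% and 0.204% in cells called G1, 0.337% and 0.215% in S, and 0.304% and 0.154% in G2/M. In cells called G2/M the upper quartile of the TGR library, 0.203%, lay below the lower quartile of the control library, 0.225%, whereas in G1 the quartile ranges overlapped. On the other scale the G2/M ranges overlapped too, with these quartiles at 0.420% in the TGR and 0.395% in the control library. After thinning to 1500 UMIs they were 4 and 3 UMIs, which again overlap. Cells are not replicates, and these quartiles describe the spread of cells inside 2 libraries.

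**Figure D4:**
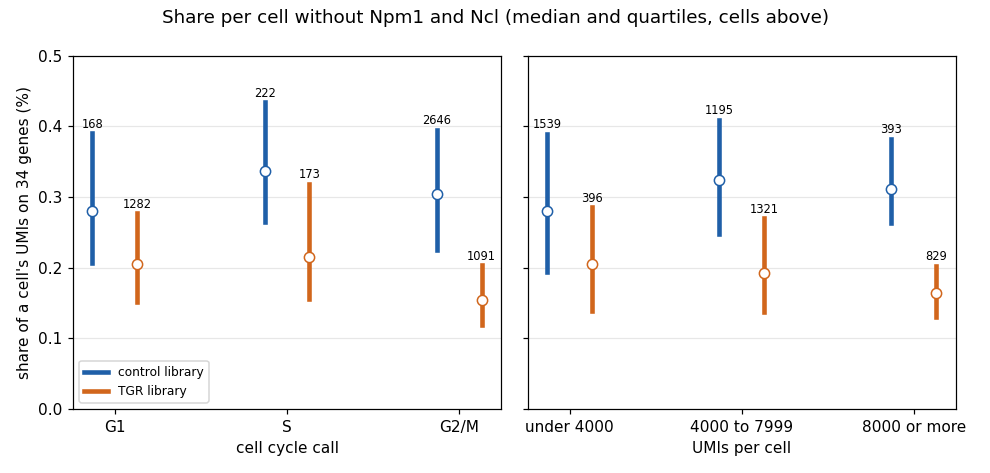
Share of a cell's UMIs on the 34 genes without Npm1 and Ncl, by cell cycle call (left) and by UMIs per cell (right), for the control (blue) and TGR (orange) library; circles are medians, bars run from the lower to the upper quartile over cells, and the number of cells stands above each bar. The TGR median lies below the control median in all 6 classes, and the quartile bars do not overlap in cells called G2/M or in cells with 8000 or more UMIs. With ribosomal protein and mitochondrial genes out of the totals, the quartile ranges in cells called G2/M do overlap (TGR upper quartile 0.420%, control lower quartile 0.395%).

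Thinned to 1500 UMIs, control cells held a mean of 4.76 UMIs on the 34 genes and TGR cells 3.06. The mean was 4.52 in control cells called G1 and 4.72 in those called G2/M, against 3.38 and 2.57 in the TGR library. Across thinned cells the count on the 34 genes was weakly and negatively related to the count on S and G2/M genes, with a Spearman rho of -0.10 over 3036 control cells and -0.14 over 2546 TGR cells. The counts in a cell share a fixed total of 1500, so this relation is a description of sparse counts only.

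The cell cycle calls place unlike cells in 1 class, so cells were also matched on their thinned UMIs over all S and G2/M genes. With 6 to 10 such UMIs the mean on the 34 genes was 4.74 in 297 control cells and 3.33 in 643 TGR cells, a ratio of 0.702. With 11 to 15 it was 5.17 and 2.70 (0.522), with 16 to 20 it was 4.86 and 2.23 (0.459), and with 21 or more 4.36 and 2.41 (0.553). With 3 to 5 it was 3.76 in 72 control cells and 3.32 in 584 TGR cells (0.882). At 0 to 2 the mean was 2.54 in 13 control cells and 3.26 in 530 TGR cells (1.28), a bin with under 20 control cells from which no order is read.

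**Figure D5:**
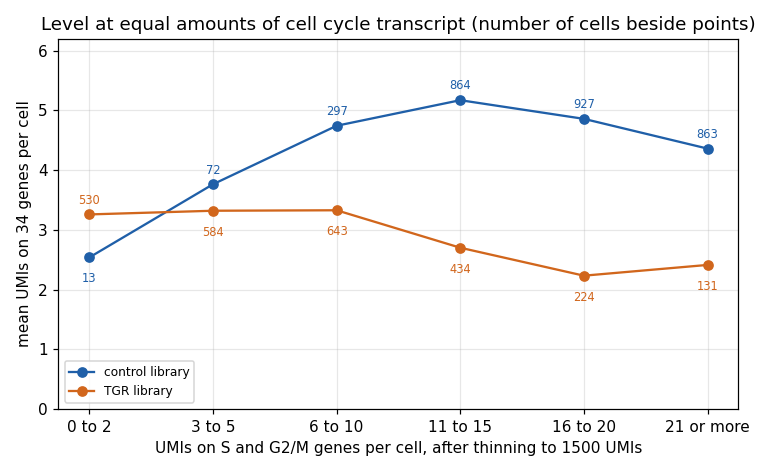
Mean number of UMIs on the 34 genes without Npm1 and Ncl per cell (vertical) in bins of UMIs on S and G2/M genes (horizontal), after every cell was thinned to 1500 UMIs; the number of cells stands beside each point, and no error bar is drawn because cells are not replicates. The lines lie apart from 6 cycle UMIs upward, and the first bin holds 13 control cells.

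When the TGR cells were weighted to the control library's mix of phases, the median log2 ratio of the 33 genes reaching 10 CPM in 1 library or both was -1.06, against -0.74 without weighting. With phase and UMI band both matched it was -0.87. The ratio was lower once the control mix of states was imposed on the TGR cells.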

How the data were processed

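Single-cell libraries from 2 conditions, control and TGR, with 1 library each, were read from the deposited matrices, which hold whole-number UMI counts per gene and barcode with no normalization. The submitters' processing notes name Cell Ranger 2.2, Seurat 3 and mm10; the aligner settings and the use of strand are not given in the sources used here. The 36 genes and the other pathway lists were chosen with earlier results of these data known.

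Barcodes with at least 500 genes and under 10% mitochondrial UMIs were kept, removing 209 control and 2 TGR barcodes. No doublet caller was run; leaving out the 5% of cells with most UMIs stands in for it. UMIs were summed per library and scaled to CPM. Log2 ratios had a pseudocount of 0.5 UMI, adjusted to each library's total, and 95% Clopper-Pearson intervals of the split of UMIs, which cover counting error only. UMIs are not scaled by transcript length, so levels of different genes are compared as UMI counts only. The rule fixed for scoring, at least 10 CPM in either library, kept 33 of the 36 genes (not Polr1b, Polr1e and Rrp12), and 21 of those 33 were called lower, against 21.8% of 6667 genes. Counts over all 36 are therefore set beside the 8062 genes with a mean of 5 CPM.

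Phases were scored with scanpy 1.11.5 over both libraries together, after thinning to 1500 UMIs and log-normalization. In each role group and list the most counted gene and those with the extreme ratios were named. A gene that met this rule is not reported here. Alternatives scaled with TMM (edgeR 4.0.16) or size factors (DESeq2 1.42.0), or used other totals, filters, pseudocounts, limits, thinning depths and weights. Coordinates are from GENCODE M21 (GRCm38), in which all 36 identifiers were matched. Protein sequences were not used here.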

Additional observations from a re-analysis of the deposited data

Results flagged for a closer look

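The median log2 ratio of cells called G2/M over cells called G1 for the 36 genes was 0.05 among control cells and -0.47 among TGR cells, so the same contrast had opposite signs in the 2 conditions. The difference was not tested, since each condition has 1 library. The control side rests on 168 cells called G1, and its sign changes when ribosomal protein and mitochondrial genes leave the totals.

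Utp20, a large scaffold of the small subunit processome, had a log2 ratio of TGR over control of 0.84 in cells with under 4000 UMIs, -0.68 in cells with 4000 to under 8000 UMIs and -0.73 in cells with 8000 or more. The counting interval excluded a ratio of 1 in each band, but the shallowest band holds 39 control and 22 TGR UMIs of this gene. The difference between bands was not tested.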

How the results depend on the processing

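The median log2 ratio of the scored genes, -0.74, was -0.48 with totals without ribosomal protein and mitochondrial genes, -0.57 as a mean of per-cell CPM and -1.06 with the control phase mix; under these its sign held. The number called lower, 21 of 33 (21.8% of all genes tested), was 10 of the 18 genes left at 50 CPM (34.2%) and 12 at a 2-fold limit (7.87%). The ratio of summed shares, 0.859, was 0.589 without Npm1 and Ncl, 1.03 without ribosomal protein and mitochondrial genes in the totals and 0.705 with both changes. In cells called G1 the median turned to 0.96 with at most 2 cycle UMIs per cell, which leaves 13 control cells. In G2/M it was -0.90 on totals without ribosomal protein and mitochondrial genes. On those totals the control G2/M over G1 median became -0.019 and the TGR S over G1 median -0.033, and the latter was -0.016 with thinning to 3000 UMIs. The cause of these shifts was not tested beyond the change of total itself. Of the single-gene values recomputed, 503 stayed on the same side of the limit, 31 no longer passed it, 6 newly passed it and 0 reversed a called direction. The 503 include values of uncalled genes that changed sign, such as Wdr12 and Wdr43 without ribosomal protein and mitochondrial genes in the totals. No paired analysis was possible because each condition has 1 library. Depth limits the G1 values of the control library and the genes under 10 CPM, and no alternative replaces a second library.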
